A study of Homo sapiens with 4 samples.

Results

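Folate-dependent one-carbon metabolism and nucleotide synthesis were followed through 37 genes on 4 arrays of human lung adenocarcinoma cells. The genes were chosen by name under a rule that used no measured values, though earlier results of these data were known. Each was read from 1 probe set, a group of probes against transcripts of a gene. That was the probe set with the highest mean log2 signal over the 4 arrays among those naming this gene alone. All 37 had such a probe set, of 19740 genes with one on the array. CL1-0 and CL1-5 are lines of one origin, of which CL1-5 was selected from CL1-0 for invasiveness. The 4 groups, with 1 array each, were CL1-0 with a control vector, CL1-0 with a PSAT1 expression vector, CL1-5 with a non-silencing shRNA vector (a hairpin with no target) and CL1-5 with a PSAT1 shRNA vector. Every group consisted of stably transduced cells selected for 2 weeks in puromycin, so no array shows untransduced cells, and whether they were pools or clones is not stated. A single array per group gives no error and allows no test, and a difference between 2 arrays also holds the difference between 2 cultures and labellings.

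Folates carry single carbon units, most of which come from serine. PSAT1, phosphoserine aminotransferase, performs a step of serine synthesis and so lies upstream of this carbon source. In mitochondria the carbon is oxidised to formate, which is exported and used in the cytosol to build the purine ring, to methylate deoxyuridylate to thymidylate and to remake methionine from homocysteine. Proliferating tumour cells draw on these routes for DNA and RNA, and several of the enzymes are drug targets in cancer.

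Values are deposited linear intensities, and wherever 4 are listed the 2 of CL1-0 come first, control before PSAT1, then those of CL1-5, control before hairpin. A floor of 49.0, the median signal over the 4 arrays with control probe sets left out, stood in for detection calls. It served as the lower limit of each signal before log2 ratios were taken, and genes above it on at least 1 array of a pair are called measured. Genes are called higher or lower, risen or fallen, only from 2-fold upward. PSAT1 itself read 4214, 5494, 1760.0 and 143, a 12.3-fold fall with the hairpin and 1.30 times the control's signal with the PSAT1 vector, so the array of CL1-0 with the PSAT1 vector did not show a 2-fold gain of its labelled transcript. A second, dimmer PSAT1 probe set had smaller log2 ratios, of -1.84 with the hairpin and 0.10 with the PSAT1 vector. Whether the PSAT1 probes match the introduced sequence is not known here. The 3' over 5' signal ratio, a sign of RNA integrity, was 1.07 to 1.10 for GAPDH, but for ACTB 1.18 and 1.22 in CL1-0 and 1.34 and 1.38 in CL1-5. Of 9 alveolar type II markers, the labelled cell type, 7 were above the floor on each array. Over all 19740 genes, 13167 were measured in the CL1-0 pair and 12852 in the CL1-5 pair, so this count does not identify the cells. The 7 ranged from NAPSA, near the floor (62.3, 67.9, 66.0 and 64.6), to ETV5 (691, 758, 587 and 496). The surfactant gene SFTPD and the transporter SLC34A2 were below the floor on all 4 arrays, as were 3 of 6 epithelial markers, EPCAM, CDH1 and KRT19. Among markers of other cell types, 0 of 4 immune and 1 to 2 of 4 endothelial markers were above the floor. Fibroblast markers numbered 5, 4, 2 and 2 of 8, with summed signals of 2933, 552, 495 and 509, most of the first being POSTN (2154), and their part in the CL1-0 ratios below was not tested.

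Start regions of the genes are shown for members that returned in the comparisons, since promoter motifs are a feature the choice of members did not use. RefSeq windows (GRCh38.p14) of 250 bases before to 50 after a start were found for 32 of the 37 members. They were searched on both strands for the E-box CACGTG, bound by MYC and USF factors, for the E2F sites TTTCGCGC, TTTGGCGC and TTTCCCGC, and for TGATGNAAN, a composite site of ATF4 and C/EBP proteins. The E-box occurred in 10 of 52 member windows (19.2%) against 7.26% of all 35116 windows, in 8 members. Among these, 3 overlapping windows of MTHFD1L hold the same site, and 1 site is counted for both PPAT and PAICS. E2F sites occurred in 8 of 52 (15.4%) against 2.74%, in 7 members, with the same site in overlapping windows of MTR. The ATF4 composite was in 3 windows (5.77% against 3.61%), all of MTHFD1L, which overlap and hold the same site. Windows of 1 gene, or of neighbouring genes, can overlap and count a site again, so these shares are descriptions. A match of letters is not evidence of binding. Only bases before the start are printed, 5' to 3' on the gene's strand, with the motif in capitals (GCGGGAAA is TTTCCCGC read on the other strand). E-boxes are shown for ATIC, MTHFD1 and DHODH, which serve purine, folate and pyrimidine steps. E2F sites are shown for TYMS and PRPS2, which lay far apart in the comparison of the lines. The last sequence holds the 136 bases between the divergent starts of PPAT and PAICS, purine enzymes transcribed away from each other, and no E-box, since the one counted for this pair lies after the PAICS start. The printed motifs begin at -46 (ATIC), -15 (MTHFD1), -159 (DHODH), -39 (TYMS) and -12 (PRPS2), counted in bases from the start.
ATIC, chr2:215311969-215312058, plus strand: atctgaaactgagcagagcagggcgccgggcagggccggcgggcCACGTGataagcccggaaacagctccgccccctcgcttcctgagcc
MTHFD1, chr14:64388263-64388352, plus strand: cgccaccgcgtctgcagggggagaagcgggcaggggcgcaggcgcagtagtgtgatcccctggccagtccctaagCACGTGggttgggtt
DHODH, chr16:72008544-72008633, plus strand: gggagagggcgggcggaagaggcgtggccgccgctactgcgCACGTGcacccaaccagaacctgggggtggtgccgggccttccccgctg
TYMS, chr18:657563-657652, plus strand: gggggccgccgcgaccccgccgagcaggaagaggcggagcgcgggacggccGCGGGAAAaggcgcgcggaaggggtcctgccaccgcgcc
PRPS2, chrX:12791322-12791411, plus strand: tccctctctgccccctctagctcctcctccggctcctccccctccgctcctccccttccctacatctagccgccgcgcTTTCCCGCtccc
PPAT to PAICS, chr4:56435616-56435751, plus strand (that of PAICS): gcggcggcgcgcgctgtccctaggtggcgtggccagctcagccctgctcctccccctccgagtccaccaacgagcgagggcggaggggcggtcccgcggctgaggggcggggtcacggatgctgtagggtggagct

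In both manipulations of PSAT1, all measured folate and nucleotide genes stayed within 1.5-fold of the line's control at their brightest probe sets. Other probe sets of RRM2 (log2 ratio -0.61), PRPS2 (-0.60), CTPS2 (0.74) and GART (1.03) passed 1.5-fold in CL1-0. In CL1-0 with PSAT1 against vector, 0 of 36 measured members were 2-fold higher and 0 lower, where 2.41% of all 13167 measured genes were higher and 1% lower (3.41% together). In CL1-5 with the PSAT1 hairpin against non-silencing, the counts were again 0 and 0 of 36, with 0.389% of 12852 genes higher and 0.405% lower (0.794% together). At 1.5-fold the member counts were still 0, against 13% of all genes in CL1-0 and 3.79% in CL1-5. Counting only bright genes, with a signal of at least 213 (the pooled 75th percentile) on 1 array of the pair, as most members have, these shares were 13.5% and 4.05%. Member log2 ratios ran from -0.57 to 0.44 in CL1-0, with a median of -0.05 (all genes -0.02), and from -0.30 to 0.36 in CL1-5, with a median of 0.05 (all genes 0.02). Probe sets of 1 gene differed in log2 ratio with an SD of 0.29 in CL1-0 and 0.17 in CL1-5, which does not replace a replicate. The 1 member left out was MTHFD1L, the mitochondrial enzyme that releases formate, whose brighter probe set read 34.8, 31.6, 26.7 and 29.5, below the floor on all arrays.

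**Figure D1:**
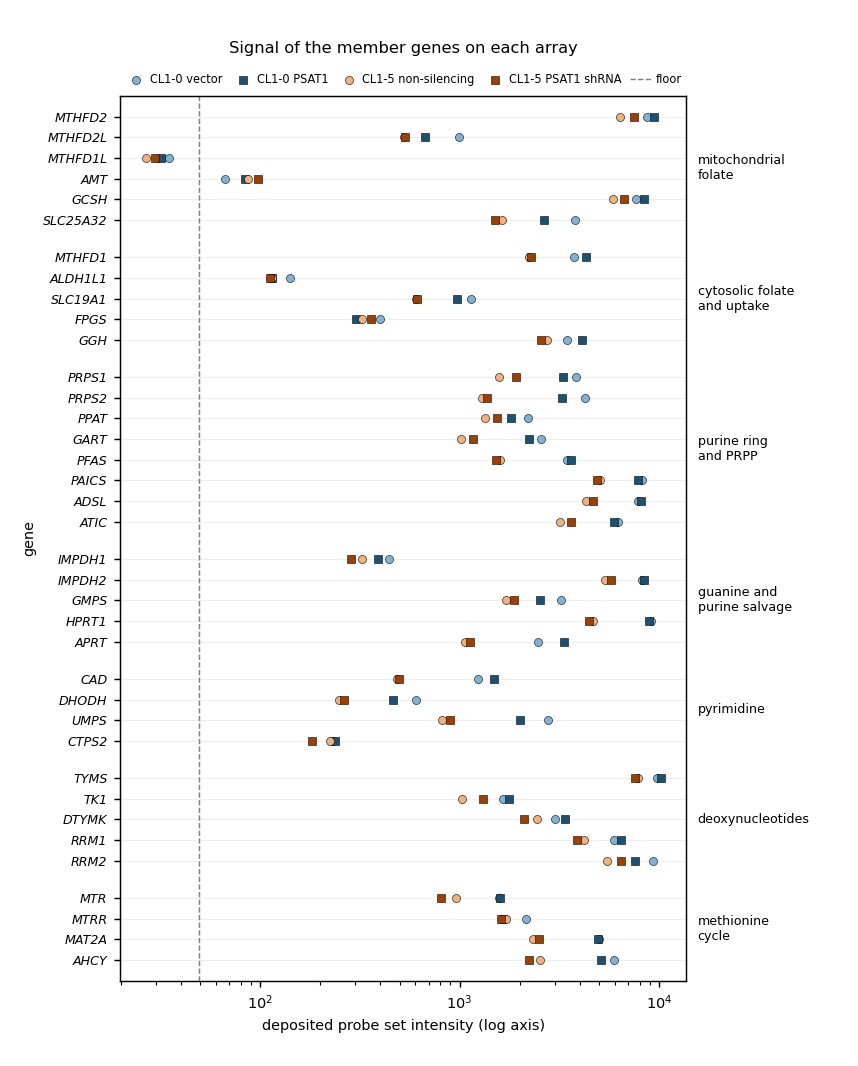
Deposited intensity (log axis) of the 37 members on the 4 arrays, by role, with the floor dashed. Levels can be compared along a row, not between genes. MTHFD1L is below the floor on all arrays, and most rows show the CL1-5 arrays (orange and brown) left of the CL1-0 arrays (blue).

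**Figure D2:**
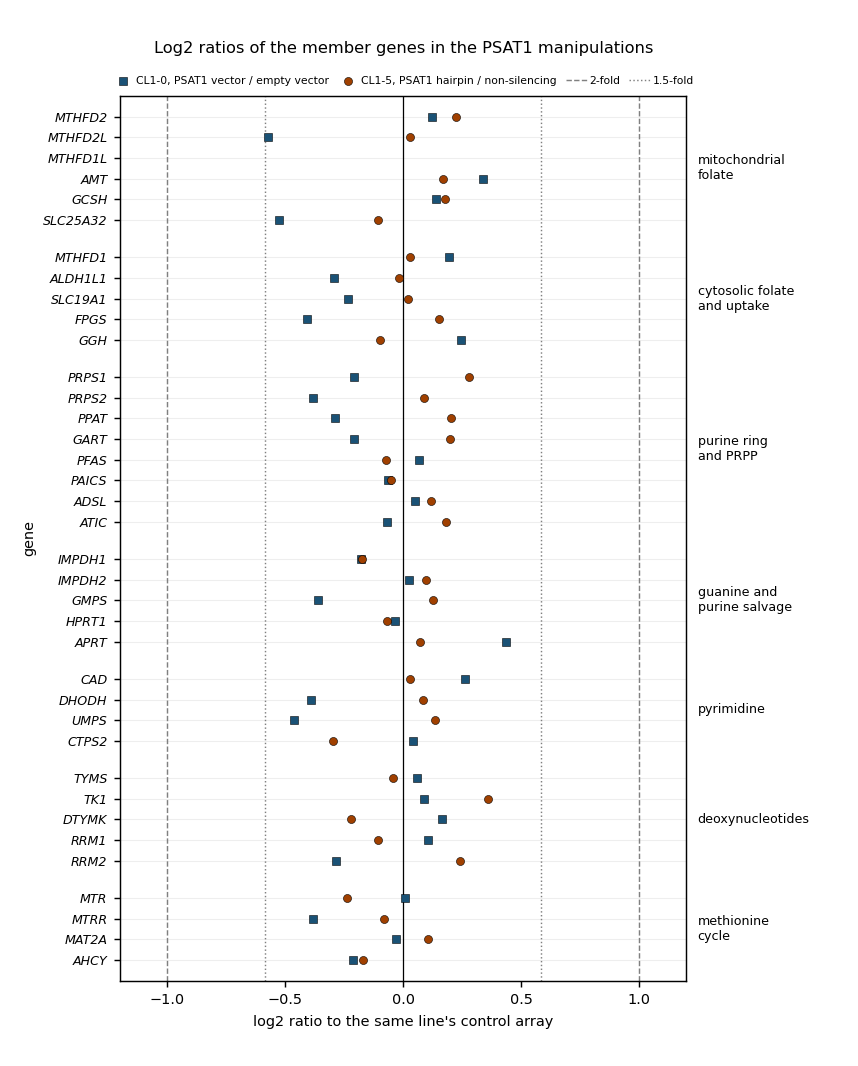
Log2 ratio of each member to the same line's control in CL1-0 with PSAT1 (blue squares) and CL1-5 with the hairpin (brown circles), with 1 array per group. All 36 measured members, each read from its brightest probe set, lie inside the dotted 1.5-fold lines in both pairs.

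In the mitochondrial folate branch, MTHFD2, which oxidises methylene-tetrahydrofolate and is commonly raised in tumours, read 8717, 9477, 6399 and 7468. Its log2 ratios were 0.12 in CL1-0 with PSAT1 and 0.22 in CL1-5 with the hairpin, so both manipulated arrays were slightly above their controls. MTHFD2L, its paralog, read 993, 667, 524 and 534. The vector array of CL1-0 stood above the PSAT1 array (log2 ratio -0.57, 1.49-fold), the largest CL1-0 difference of any member, while the CL1-5 arrays were nearly equal (0.03). With the mean over its 8 probe sets, 4 of them below the floor on all arrays, the CL1-0 ratio of MTHFD2L was -0.16. SLC25A32, the carrier that brings folate into mitochondria, read 3811, 2646, 1628 and 1510.2. Its CL1-0 ratio was the second most negative of the members (-0.53), with -0.11 in CL1-5. GCSH and AMT belong to the glycine cleavage system, which yields a one-carbon unit from glycine. GCSH read 7666, 8441, 5916 and 6678 (ratios 0.14 and 0.17), and AMT, close to the floor, read 66.6, 84.1, 86.9 and 97.6 (0.34 and 0.17). Of 5 measured genes of this branch, MTHFD2, GCSH and AMT thus had positive ratios in both manipulations, as did 2554 of 11999 genes.

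The cytosolic branch and the genes of folate uptake and storage had ratios from -0.41 to 0.25 in CL1-0 and from -0.10 to 0.15 in CL1-5. MTHFD1, the trifunctional enzyme that loads formate onto tetrahydrofolate, read 3763, 4306, 2228 and 2273 (ratios 0.19 and 0.03). ALDH1L1, which oxidises formyl-tetrahydrofolate to carbon dioxide, read 141, 115, 114 and 113 (-0.29 and -0.02). The reduced folate carrier SLC19A1 read 1147, 976, 603 and 611 (-0.23 and 0.02). FPGS adds glutamates to folate and keeps it in the cell, while GGH removes them, and the ratios of this pair had opposite signs in each line. FPGS read 401, 302, 323 and 358, with ratios of -0.41 and 0.15. GGH read 3469.9, 4116, 2744 and 2559.8, with ratios of 0.25 and -0.10.

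Of the 8 genes of PRPP supply and purine ring synthesis, 6 had negative ratios in CL1-0 with PSAT1 and 6 had positive ratios in CL1-5 with the hairpin. Over all genes, 6831 of 13167 ratios were negative in CL1-0 and 6779 of 12852 positive in CL1-5, and counts of 8 genes are a description. PRPS1 and PRPS2 make phosphoribosyl pyrophosphate, the ribose donor of nucleotides. PRPS1 read 3846, 3323, 1580.4 and 1916 (ratios -0.21 and 0.28) and PRPS2 4262, 3269.7, 1292 and 1373 (-0.38 and 0.09). PPAT catalyses the committed step of the purine route, and GART uses formyl-folate in it. PPAT read 2207, 1808, 1346 and 1547 (-0.29 and 0.20). GART read 2567, 2223, 1017 and 1165 (-0.21 and 0.20). At the brightest probe sets of these 4 genes the PSAT1 array of CL1-0 was below its control, by at most 1.30-fold. The hairpin array of CL1-5 was above its control, within the same limit. Second probe sets had larger ratios for PRPS1 (-0.46 and 0.45) and, in CL1-0, for PRPS2 (-0.60). In CL1-0 a dim probe set of PPAT (0.17) and one of GART (1.03) were positive, and the other measured ones of these genes negative. The later enzymes had CL1-0 ratios nearer 0 at their brightest probe sets, but in CL1-5 not all did. PFAS had ratios of 0.07 and -0.07, PAICS of -0.06 and -0.05, ADSL of 0.05 and 0.12. ATIC, which carries out the last steps and takes the second formyl group from folate, read 6269, 5983, 3195 and 3625 (-0.07 and 0.18). PPAT and PAICS, which are transcribed from the printed region in opposite directions, had unequal ratios in both manipulations. A second PAICS probe set had -0.34 and 0.12, nearer to those of PPAT.

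Among the guanine branch and purine salvage genes, IMPDH2, the major isoform of IMP dehydrogenase in proliferating cells, read 8233, 8382, 5389 and 5762 (ratios 0.03 and 0.10). IMPDH1 had -0.18 and -0.17. GMPS, which aminates XMP to GMP, read 3241, 2526, 1718 and 1872 (-0.36 and 0.12). Salvage enzymes reuse free bases. HPRT1, which takes hypoxanthine and guanine, differed little, with ratios of -0.03 and -0.07. APRT, which takes adenine, read 2476, 3348, 1071 and 1124, and had the largest positive CL1-0 ratio of the members (0.44, 1.35-fold), with 0.07 in CL1-5. A second APRT probe set gave only 0.08 in CL1-0.

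In pyrimidine synthesis, CAD, the multifunctional enzyme of the first steps, read 1241, 1488, 485 and 495 (ratios 0.26 and 0.03). DHODH, the mitochondrial dehydrogenase of the route, read 607, 463, 248 and 263 (-0.39 and 0.08). UMPS, which completes UMP, read 2765, 2008, 813 and 894 (-0.46 and 0.14). At the brightest probe sets in CL1-0, CAD was thus above its control and DHODH and UMPS were below. Other DHODH probe sets had 0.01 and -0.14 in CL1-0. CTPS2, which aminates UTP to CTP, read 231, 238, 223 and 182, with ratios of 0.04 and -0.30. Its other probe set had ratios of 0.74 and -0.47, so that the CL1-0 value depended on the probe set.

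In the methionine cycle, MTR, methionine synthase, read 1578, 1588, 956 and 811 (ratios 0.01 and -0.24). MTRR, which reactivates it, read 2150.1, 1649, 1709.7 and 1618 (-0.38 and -0.08). MAT2A, which makes S-adenosylmethionine, read 5033, 4933, 2329 and 2506 (-0.03 and 0.11). AHCY, which hydrolyses S-adenosylhomocysteine, read 5933, 5124, 2527 and 2244 (-0.21 and -0.17). MAT2A was the 1 gene of these 4 above its control with the hairpin, and MTR the 1 above its control with the PSAT1 vector.

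The deoxynucleotide enzymes had ratios of mixed sign in each line. RRM1 and RRM2, the large and small subunits of ribonucleotide reductase, had ratios of opposite sign in both lines. RRM2 read 9298, 7626, 5489 and 6484 (ratios -0.29 and 0.24) and RRM1 read 5991, 6441, 4203 and 3899.8 (0.10 and -0.11). Thymidine kinase TK1 read 1659.6, 1763, 1027 and 1317 (0.09 and 0.36) and had the largest positive CL1-5 ratio of the members. Thymidylate synthase TYMS read 9802, 10215, 7867 and 7627 (0.06 and -0.04), and DTYMK, which phosphorylates thymidylate, 3016, 3378, 2454 and 2101 (0.16 and -0.22). With the hairpin, then, RRM2 and TK1 were above the control array and the other 3 below it. A second RRM2 probe set had the same signs (-0.61 and 0.11), while a second RRM1 probe set had 0.03 in CL1-5.

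Cell cycle genes had ratios mostly of 1 sign within a list on the same arrays. Of 20 S phase genes, which encode replication factors and G1/S regulators, 18 had negative ratios in CL1-0 with PSAT1 (median -0.16; 2 fell 2-fold, ORC1 at -1.05 and CDC25A at -1.17). In CL1-5 with the hairpin 19 had positive ratios (median 0.38). Of 18 G2/M genes, 16 had positive ratios in CL1-0 (median 0.27), and 18 had negative ratios in CL1-5 (median -0.37). Over all genes, 47.5% of ratios were positive in CL1-0 and 52.7% in CL1-5, and the share that fell 2-fold in CL1-0 was 1%. The signs of RRM2 were those of the S phase list in both lines, and those of RRM1, DTYMK and TYMS were those of the G2/M list, except at the second RRM1 probe set in CL1-5. In CL1-0 every deoxynucleotide enzyme had, at its brightest probe set, a ratio smaller than the SD between probe sets of a gene (0.29). In CL1-5 the ratios of RRM1 and TYMS were smaller than that SD (0.17). TK1 was positive in both lines. Both cell cycle lists were chosen with earlier results of these data known and give no independent support. The part of the cell cycle in these values was not tested.

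**Figure D3:**
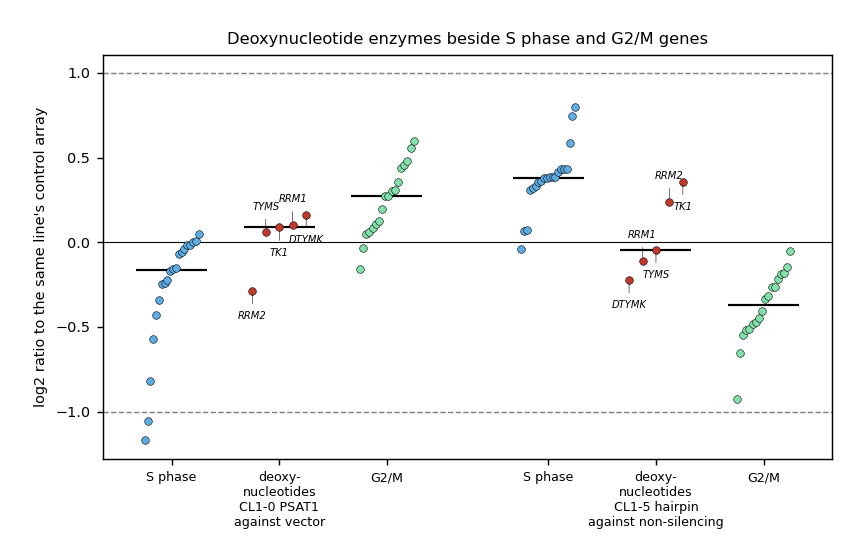
Log2 ratio to the same line's control for S phase genes (blue), the 5 deoxynucleotide enzymes (red, named) and G2/M genes (green), with 1 array per group. Points are genes, in ascending order within each list, bars are list medians and dashed lines mark 2-fold. The enzymes spread between the lists, from -0.29 to 0.16 in CL1-0 and from -0.22 to 0.36 in CL1-5.

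The amino acid response, through which ATF4 can induce enzymes of serine and one-carbon metabolism, had genes past 2-fold in CL1-0. Of 21 genes of that list, 8 were 2-fold higher with PSAT1 and 0 lower (median 0.44), against 2.41% of all genes higher. MTHFD2, a known ATF4 target, had 0.12 in the same pair, or 0.32 at its dimmer probe set, and its paralog MTHFD2L had -0.57. In CL1-5 with the hairpin 0 of the 21 were past 2-fold (median -0.05) and MTHFD2 had 0.22. The list was known from earlier results of these data to be raised in CL1-0 and gives no independent support.

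Set side by side, the manipulations gave members ratios of opposite sign at about the share found over all genes. The pairs share no array, and 1 construct adds PSAT1 while the other targets it. Of 36 members, 20 (55.6%) had opposite signs, against 56.3% of 11999 genes measured in both. A negative ratio with PSAT1 and a positive one with the hairpin was found in 13 members (36.1%, all genes 30.9%), and the reverse in 7 (19.4%, all genes 25.4%). Those at least 0.2 in size on the log2 scale in both lines were PRPS1, PPAT and RRM2. Their CL1-0 ratios were smaller than the SD between probe sets of a gene (0.29), their CL1-5 ratios larger (0.17). The share of all genes past this size was not taken, so no direction is read from these genes. Both ratios were positive in 9 of 36 members and negative in 7, against 2554 and 2505 of 11999 genes.

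Between the lines, nearly all members had negative log2 ratios in CL1-5, but so did most genes on these arrays. In CL1-5 non-silencing against CL1-0 vector, 35 of 36 members were below their CL1-0 signal, with a median log2 ratio of -0.76, as were 10526 of 13706 genes. The exception was AMT (0.38). At 2-fold, 11 members were lower and 0 higher, against 24.7% of all 13706 measured genes lower and 5.14% higher, and 34.4% of bright genes lower. A share this near the background is not a result about the members. At 1.5-fold 24 members were lower, against 44.3% of all genes and 57.7% of bright genes. The median log2 ratio of all genes was -0.48 with the deposited scaling, and 0.00 and 0.09 after quantile normalization and median centring. Of all 2-fold calls 82.8% were lower with the deposited scaling, against 48.6% and 45.9% after these. Identical deposited values occurred at 1260 probe sets within CL1-0, at 1749 within CL1-5 and at 0 across the lines, so whether the lines were processed together is not known, and a level set across them rests on the scaling. The ACTB ratios, the fibroblast markers and the non-silencing and empty vectors differ between these arrays too, and cannot be told apart from the line.

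At the brightest probe sets, the lowest members in CL1-5 were UMPS, of pyrimidine synthesis, and PRPS2, of ribose phosphate supply. Dimmer probe sets of GMPS (-3.24), GART (-2.69) and PPAT (-2.15) had more negative log2 ratios. UMPS was 3.40-fold lower (813 in CL1-5 against 2765 in CL1-0), with a log2 ratio of -1.77, -1.28 from the median of all genes. PRPS2 was 3.30-fold lower (1292 against 4262, -1.72). These 2 were the members still 2-fold lower after quantile normalization (-1.03 and -1.02) and after median centring (-1.15 and -1.11). That was 2 of 36, where 8.87% and 8.59% of all genes were, so no excess over all genes was seen. Without probe sets that can match several transcripts, UMPS was read from a dim probe set below the floor in CL1-5 (37.6 against 85.1), whose ratio of -0.80 is only a bound and does not settle the call. The other 9 were CAD (2.56-fold), GART (2.52-fold), DHODH (2.45-fold), PRPS1 (2.43-fold), AHCY (2.35-fold), SLC25A32 (2.34-fold), APRT (2.31-fold), PFAS (2.16-fold) and MAT2A (2.16-fold). All 9 kept negative ratios under both other scalings but were then under 2-fold, from -0.74 for CAD to -0.41 for PFAS. With the mean over probe sets CAD (-0.89) and MAT2A (-0.95) were also under 2-fold.

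By role, 3 of 4 pyrimidine genes were 2-fold lower (CTPS2 the exception at -0.05), 4 of 8 purine and PRPP genes, 2 of 4 methionine cycle genes, 1 of 5 guanine and salvage genes and 1 of 5 mitochondrial folate genes. None of the 5 cytosolic folate genes and none of the 5 deoxynucleotide enzymes were. The share of all genes was 24.7% (34.4% of bright genes), and under either other scaling the counts were 1 of 4 pyrimidine genes (UMPS), 1 of 8 purine and PRPP genes (PRPS2) and 0 in the other roles. For 11 members a negative ratio with the deposited scaling became positive under both quantile normalization and median centring, so that no direction between the lines can be given. They were TYMS (-0.32 as deposited, 0.14 and 0.30 under the others), DTYMK (-0.30), RRM1 (-0.51), GGH (-0.34), FPGS (-0.31), ALDH1L1 (-0.31), MTRR (-0.33), GCSH (-0.37), MTHFD2 (-0.45), IMPDH1 (-0.45) and CTPS2. PPAT, TK1 and MTR turned positive under quantile normalization alone and IMPDH2 under centring alone, so their direction is not settled either. Over all genes the share with a negative ratio went from 76.8% as deposited to 49.9% under quantile normalization and 43.7% under centring. The 11 members that turned under both are those whose negative ratios lay nearest to 0.

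**Figure D4:**
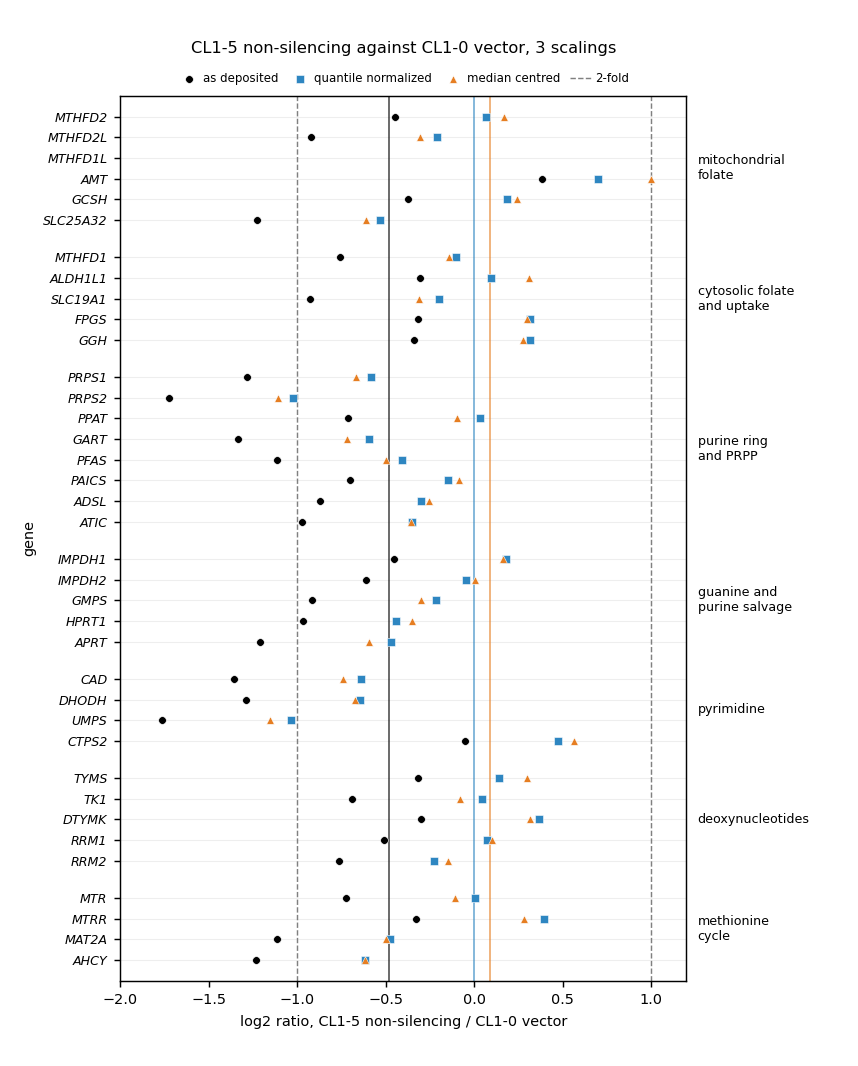
Log2 ratio of each member in CL1-5 non-silencing against CL1-0 vector, with deposited values (black), after quantile normalization (blue) and after median centring (orange), 1 array per group. Vertical solid lines are the medians of all genes in the same colours. UMPS and PRPS2 alone stay left of the dashed 2-fold line under all 3 scalings.

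The difference between the ratios of related genes on the same arrays does not depend on median centring. PRPS2 had a more negative ratio than PRPS1 in CL1-0 with PSAT1 and between the lines, and a smaller positive one with the hairpin, with differences (PRPS1 minus PRPS2) of 0.17, 0.19 and 0.44 in the order CL1-0, CL1-5 and lines. MTHFD2 was above MTHFD2L by 0.69, 0.20 and 0.48 in that order, but the order between the lines depended on the probe set, since the dimmer MTHFD2 probe set had -1.10 and the mean over probe sets of MTHFD2L was -0.24. For IMPDH1 minus IMPDH2 the differences were -0.20, -0.27 and 0.16. RRM1 minus RRM2 gave 0.39, -0.35 and 0.25, so the difference between the 2 transcripts had opposite signs in the manipulations. At their second probe sets RRM1 and RRM2 had ratios of 0.10 and -0.61 in CL1-0, and of 0.03 and 0.11 in CL1-5. The order of RRM1 and RRM2 between the lines turned at their second probe sets (-1.21 and -0.48). ATIC, MTHFD1 and DHODH, whose E-boxes are printed above, had line ratios of -0.97, -0.76 and -1.29. TYMS and PRPS2, with an E2F site each, had -0.32 and -1.72. PPAT and PAICS, which share the printed start region, had nearly equal line ratios of -0.71 and -0.70, although a second PPAT probe set read -2.15.

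Other probe sets of a gene gave a check on the choice of the brightest. Of 25 members with 2 or more probe sets above the floor on both arrays of CL1-0, 21 had the same sign in all, and 4 (DHODH, GART, GMPS and PPAT) did not. In the CL1-5 pair 18 of 24 had the same sign, and in the comparison of the lines 23 of 24, ALDH1L1 being the exception. Between the lines, 15 of the 24 had a larger difference at all of their other probe sets than at the brightest, and 8 a smaller one. GART is an example: its brightest probe set had -1.34, and its 5 others above the floor in CL1-0 had values from -2.70 to -1.51, the first of them against an array below the floor and so a bound. One dim GART probe set read 165, 337, 58.0 and 60.9 and rose 2-fold in CL1-0 with PSAT1 (1.03), against -0.21 for the brightest. GMPS is another. A dimmer GMPS probe set read 889, 1286, 94.0 and 65.7, with ratios of 0.53, -0.52 and -3.24 in the order CL1-0, CL1-5 and lines, where the brightest had -0.36, 0.12 and -0.92. What these probe sets detect is not known here.

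**Figure D5:**
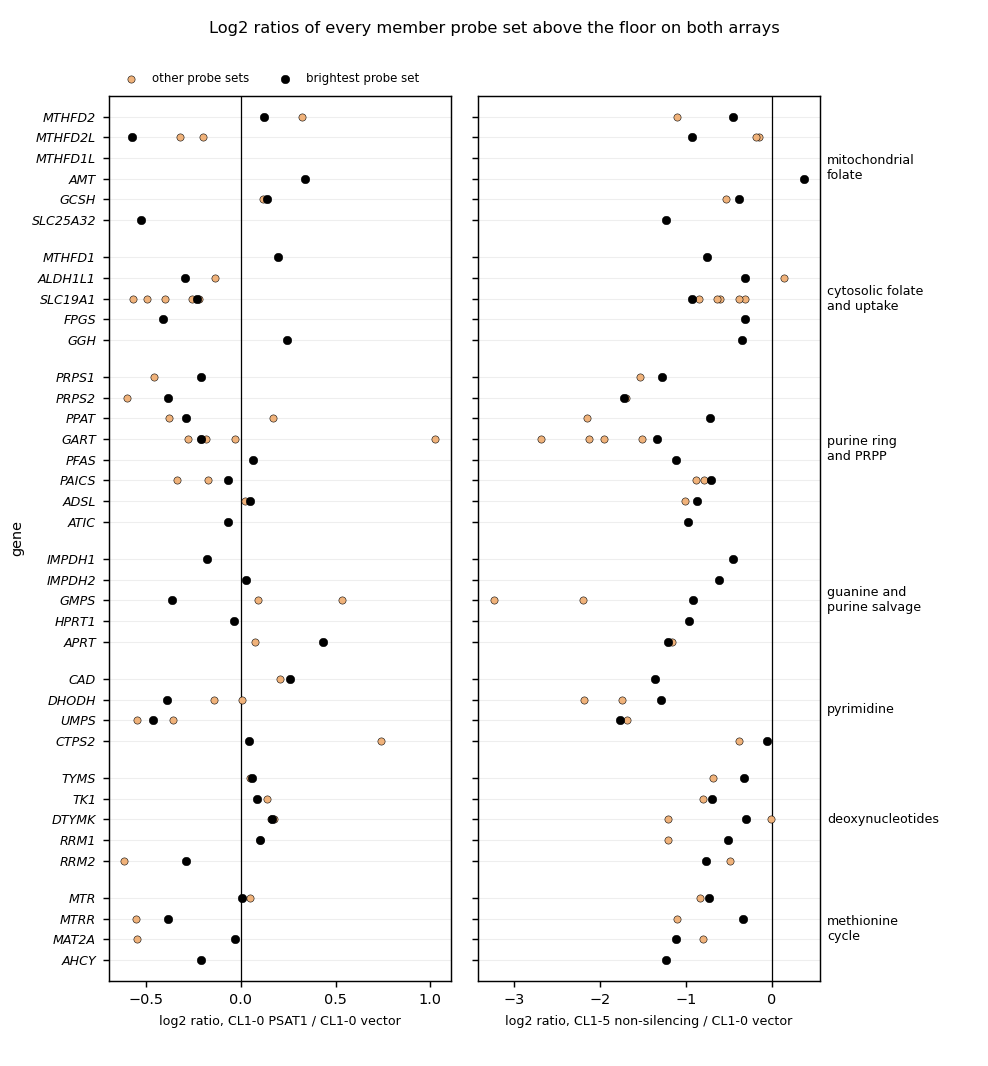
Log2 ratio at every member probe set above the floor on both arrays, in CL1-0 with PSAT1 against vector (left) and CL1-5 non-silencing against CL1-0 vector (right), with 1 array per group. Black points are the brightest probe sets. The probe sets of GART, and those of GMPS, lie on both sides of 0 on the left, and some of them below -2 on the right.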

How the data were processed

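Total RNA (6 ug per sample) of 4 groups was measured on 1 one-colour Affymetrix array each. Deposited values are intensity on a linear scale, 1 per probe set. The submitters' processing notes name MAS5 for what the authors did. Its version and scaling target are not given in the sources used here. The table held 54675 probe sets, 62 of them controls. Names came from the platform annotation, updated through a RefSeq gene table: 41097 probe sets had 1 gene symbol (41043 matched), 1801 several and 11777 none. Genes of the Y chromosome and X inactivation were left out (59 probe sets). Signals were floored at the 50th percentile (49.0) and log2 transformed. Calls were made by size (2-fold, with 1.5-fold as an alternative), since 1 array per group allows no test. A fold against the floor is a lower bound. The number of arrays limits the precision. All members are named, with neighbouring genes past 2-fold or among the 4 largest ratios. Members, lists and tests were chosen with earlier results of these data known, and the comparison with bright genes was added after seeing the values. The functions were tested on simulated data. Python 3.11.15, numpy 2.4.6 and pandas 2.3.3 were used.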

Additional observations from a re-analysis of the deposited data

How the results depend on the processing

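Alternatives were quantile normalization, median centring, floors at the 25th and 65th percentile, the mean over probe sets, no probe sets that can match several transcripts, a brightest probe set chosen on floored signal, and a 1.5-fold rule. In both manipulations the counts of members 2-fold higher and lower stayed 0 under all of these. The median member ratio moved by less than the SD between probe sets of a gene in both manipulations. Members with a positive ratio in CL1-0 were 10 under centring, against 16, the median of all genes being -0.07 there. Between the lines the median member ratio was -0.17 under quantile normalization and -0.14 under centring, against -0.76, because both scalings moved all genes. Members 2-fold lower were 2, 2 and, without multi-transcript probe sets, 7 of the 27 then measured, and 24 at 1.5-fold (44.3% of all genes). Positive ratios numbered 15, 13 and, with the 65th percentile floor, which leaves AMT unmeasured, 0. The count of members with opposite signs stayed within 1.5 times of 20. With 1 array per group nothing separates culture or labelling from the construct, and AMT lies near the floor. No paired analysis was possible because each group had 1 array.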

Other observations

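Some genes next to the folate and nucleotide routes showed larger differences than the members. Of 44 such genes (transporters, nucleotide kinases, salvage and breakdown enzymes, serine synthesis), 37 had a probe set of their own. In CL1-0 with PSAT1, 2 of 31 measured were 2-fold higher and 0 lower, against 2.41% and 1% of all genes. They were TK2, the mitochondrial thymidine kinase (966 against 455, 2.12-fold), and ADSS1, the muscle form of adenylosuccinate synthase (320.0 against 146, 2.19-fold). With the mean over probe sets neither reached 2-fold (log2 ratios of 0.65 for TK2 and 0.48 for ADSS1), and ADSS1 was just under it after quantile normalization (0.96). The next largest ratios were those of PNP, purine nucleoside phosphorylase (-0.79), and of the glycine decarboxylase GLDC (-0.60). In CL1-5 with the hairpin none of 32 reached 2-fold, where 0.389% of all genes were higher and 0.405% lower. The largest were GLDC (-0.62), SAMHD1, which breaks down deoxynucleotides (0.49), CDA (0.34) and PHGDH (0.34).

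Between the control arrays of the lines, 12 of 34 neighbouring genes were 2-fold lower in CL1-5 (all genes 24.7%) and 2 higher (all genes 5.14%). NT5E, the surface enzyme CD73 that makes adenosine from AMP, read 1579 in CL1-5 against 36.1 in CL1-0, below the floor, at least 32.2-fold higher. The cytidine deaminase CDA (478 against 30.3) was at least 9.75-fold higher. GLDC was 11.7-fold lower (134 against 1569.9), uridine phosphorylase UPP1 5.80-fold (1378 against 8001), the nucleoside transporter SLC29A2 at least 5.13-fold and PHGDH 4.49-fold. CBS, TK2 and ADSS1 were also lower, and these 7 falls remained past 2-fold after quantile normalization and median centring, as did the rises of NT5E and CDA. With the mean over probe sets TK2 (-0.92), ADSS1 (-0.92) and SLC29A2 (-0.73) were under 2-fold, as were SLC29A2 without multi-transcript probe sets (-0.43) and ADSS1 with the 65th percentile floor (-0.52). DLD, RRM2B, ADA, SHMT2 and MAT2B fell 2-fold with the deposited scaling alone. TYMP was above 2-fold only under the other scalings (1.11 and 1.17).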
